A study of Mus musculus with 8 samples.

Results

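The ADAMTS proteases (a disintegrin and metalloproteinase with thrombospondin motifs) are described here in tibialis anterior (TA) muscles of mice in which Uba1, the ubiquitin-activating E1 enzyme, was knocked down. The members are 8 genes taken by name from a table of 41709 genes, namely Adamts1, Adamts2, Adamts4, Adamts5, Adamts8, Adamts9, Adamts10 and Adamts15. They belong to the 19 ADAMTS proteases that the table lists. Adamts4 was chosen for its lower level with Uba1 siRNAs in these same muscles, and the rest were chosen as its relatives. The values of Adamts4 are therefore given as a description, with no test.

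The data are RNA-seq values of 8 whole TA muscles from male C57BL/6J mice aged 3 months. Each mouse received non-targeting (NT) siRNAs in one TA muscle and Uba1 siRNAs in the contralateral one, so that there were 4 muscles per group (siNT and siUBA1 in the labels). Both legs were pretreated with hyaluronidase, injected with 1500 pmol of a siRNA pool in 30 µl, electroporated and collected 7 days later. The titles name the right TA for every NT muscle and the left TA for every Uba1 muscle, so leg and siRNA cannot be told apart. The treatment tags of Uba1 replicates 2 to 4 name UBA2, UBA3 and UBA4, whereas their descriptions and titles name UBA1, and the samples were grouped by the descriptions. Expression is given as transcripts per 1000000 (TPM), which are corrected for transcript length and sum to 1000000 in each muscle, so the depth of sequencing is unknown. In whole muscle, fewer cells of a type and less RNA per cell cannot be told apart.

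ADAMTS proteases are secreted zinc metalloproteases that bind to and cut the extracellular matrix. One branch, with Adamts1, Adamts4, Adamts5, Adamts8, Adamts9 and Adamts15, cuts hyalectans such as versican and aggrecan, the large proteoglycans that hang on hyaluronan. Adamts2 removes the N-terminal propeptide of fibrillar procollagens, and Adamts10 acts on fibrillin microfibrils. In muscle, clearance of versican by these enzymes is known to accompany the fusion of myoblasts.

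The proximal promoters of Adamts1 and Adamts4 are shown because these were the members with lower levels. Each line gives the 250 bases before the start of the canonical GENCODE transcript on GRCm39, 5′ to 3′ along the gene, with matches to the motifs searched in capitals. The regions are chr16:85600010-85600259 (minus strand) for Adamts1 and chr1:171077740-171077989 (plus strand) for Adamts4.
Adamts1: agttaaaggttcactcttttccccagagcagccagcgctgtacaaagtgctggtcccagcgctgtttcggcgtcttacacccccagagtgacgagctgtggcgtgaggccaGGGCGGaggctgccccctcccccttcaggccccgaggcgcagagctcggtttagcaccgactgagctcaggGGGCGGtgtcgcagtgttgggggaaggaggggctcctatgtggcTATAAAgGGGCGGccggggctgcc
Adamts4: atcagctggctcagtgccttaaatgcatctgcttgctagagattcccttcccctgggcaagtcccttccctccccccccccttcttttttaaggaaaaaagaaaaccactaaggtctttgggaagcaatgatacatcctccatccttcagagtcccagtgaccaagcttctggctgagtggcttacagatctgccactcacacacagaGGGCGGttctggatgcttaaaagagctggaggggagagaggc
The capitals in the Adamts1 promoter are a TATA box (TATAAA) at -24 to -19 and GC boxes (GGGCGG) at -139 to -134, -68 to -63 and -17 to -12 from the transcript start. Adamts4 held 1 GC box at -42 to -37 and no TATA box. Of 21738 promoters of 300 bases (250 before and 50 after the start), 13.2% held a TATA box and 42.5% a GC box on either strand. Those motifs were added after a first search for the motifs of inducible factors, which were AP-1 (TGANTCA), CRE (TGACGTCA), C/EBP (TTGCNNAA) and NF-kB (GGGNNTTCC or the same with 1 more base between). None of the 7 member promoters examined held an AP-1, CRE or C/EBP match, which 7.15%, 2.45% and 10.7% of all promoters held. The single NF-kB match among them was in Adamts4, reading GGAAGACCC at +15 to +23, just after the start and on the opposite strand, against 10.4% of all promoters with a match. A match is a description of these letters and not a bound site.

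Uba1 mRNA, the target of the siRNAs, was at 60.6 ± 2.11 TPM in the NT muscles and 15.9 ± 6.83 TPM in the Uba1 muscles (SD, n = 4 each). Its log2 fold change (log2FC, Uba1 minus NT muscles, on log2(TPM + 1)) was -1.98, with a standard error of 0.290 and a limma adjusted p of 0.0527 (Benjamini-Hochberg adjustment over all genes). With the muscles of a mouse paired by a replicate block, the adjusted p of limma was 0.0278. The test covered 11530 genes that reached 1 TPM in 4 or more muscles. Of these, 3 (0.0260%) passed an adjusted p of 0.05, and 57 (0.494%) passed it with the block. The median log2FC of all genes tested was 0.11 and 81.8% of them were higher with Uba1 siRNAs. With median-ratio scaling, which sets the typical gene to no change, this median was 0.0016 and 50.7% were higher. Transcripts of the mitochondrial genome took 42.1% to 45.7% of the TPM in the NT muscles and 39.9% to 50.3% in the Uba1 muscles. The myofiber markers fixed for the check of the tissue summed to between 104895 and 112139 TPM in the NT muscles and between 81724 and 115511 TPM in the Uba1 muscles.

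In the NT muscles Adamts1 was by far the most abundant member. Its mean of 47.5 TPM was 7.23-fold that of Adamts2, the next in order, and the lowest NT value of Adamts1 lay above the highest of Adamts2. Adamts2, Adamts4, Adamts10, Adamts5, Adamts8 and Adamts9 followed in that order, and the ranges of neighbours among these 6 overlapped over the NT muscles. Adamts15 came last, at 0.880 ± 0.313 TPM (SD, n = 4), and its NT range lay below that of Adamts9. In the Uba1 muscles Adamts1 and Adamts2 kept the first ranks by mean, whereas Adamts4 moved from rank 3 to rank 7, between Adamts9 and Adamts15. All 8 members passed the filter on low values, Adamts4 with 7 muscles at 1 TPM or more and Adamts15 with exactly 4.

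**Figure D1:**
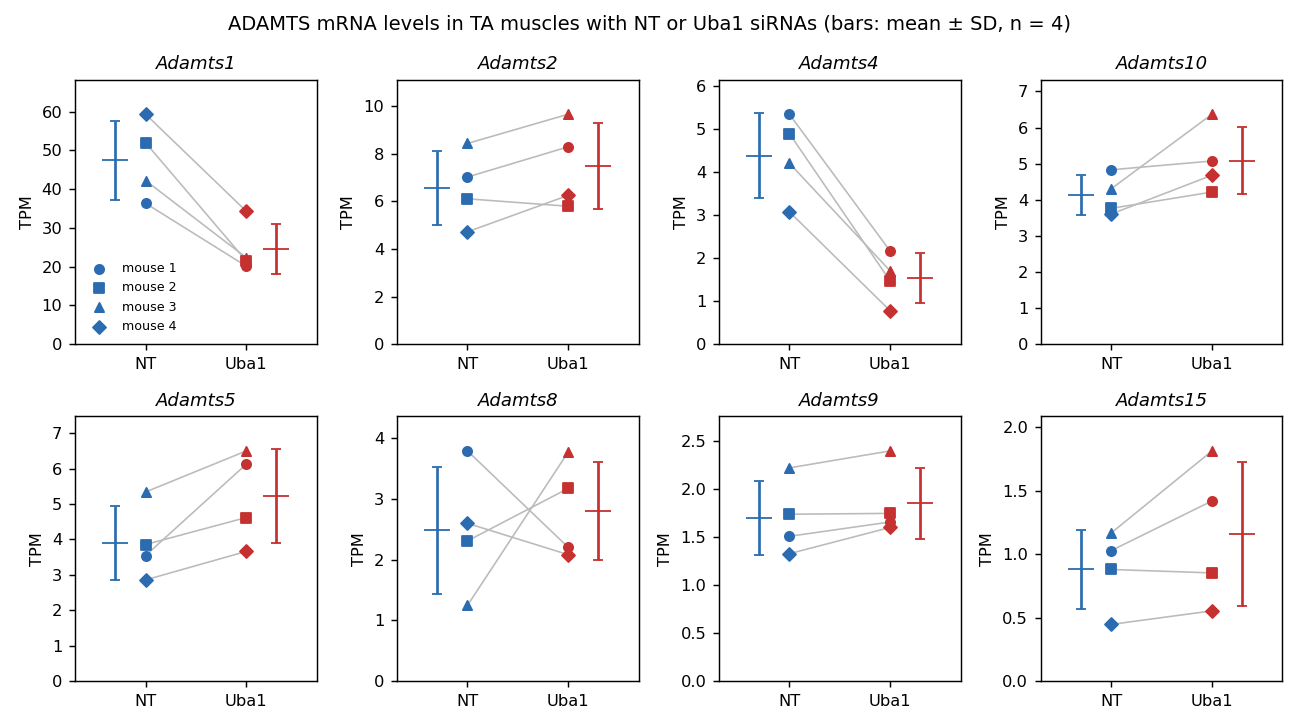
TPM of the 8 ADAMTS members in each TA muscle, ordered by the level in NT muscles. Each marker shape is a mouse, lines join its NT (blue) and Uba1 (red) muscle, and bars give the mean ± SD of 4 muscles. Only Adamts1 and Adamts4 separate the groups, with NT values from 36.4 and 3.08 TPM upward and Uba1 values up to 34.3 and 2.17 TPM.

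Adamts1 and Adamts4, both hyalectan-cutting proteases, were lower with Uba1 siRNAs in all 4 mice. Adamts1, which is known for its induction in the ovary at ovulation and for restraint of blood vessel growth, was at 36.4, 52.0, 42.2 and 59.4 TPM in NT replicates 1 to 4. In Uba1 replicates 1 to 4 it was at 20.1, 21.5, 22.3 and 34.3 TPM. The groups did not overlap, and the highest Uba1 value came from the mouse that also had the highest NT value. The mean of 24.6 ± 6.56 TPM was 51.8% of the NT mean of 47.5 ± 10.2 TPM (SD, n = 4 each). Within mice, the Uba1 muscle held 55.4%, 41.4%, 52.9% and 57.8% of the Adamts1 level of the NT muscle.

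The log2FC of Adamts1 was -0.93, with a standard error of 0.190 and a 95% interval from -1.36 to -0.50. It did not pass the adjustment over all genes (unadjusted p = 0.000800 and adjusted p = 0.129, limma with Benjamini-Hochberg adjustment). With the replicate block it did, with an adjusted p of 0.0133 from limma. The exact permutation test of Adamts1 alone gave p = 0.0286, the smallest that 4 muscles against 4 allow (two-sided). It treated the 8 muscles as independent and ignored that they are the paired legs of 4 mice. At an unadjusted p under 0.05, 1.98% of all genes tested were lower and 16.0% higher, and 1.01% were lower without overlap between the groups against 10.6% higher without overlap. Of the 7 members other than Adamts4, 1 was lower at that p and without overlap (Adamts1) and 0 were higher by either measure. The adjusted p of Adamts1 was also under 0.05 without Uba1 replicate 4, the highest of its group, at 0.0374 from limma, and over all 17 alternatives it ran from 0.00765 to 0.351.

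Adamts4, also called aggrecanase-1, is an inflammation-induced protease that cuts aggrecan and versican. It was at 5.35, 4.90, 4.21 and 3.08 TPM in NT replicates 1 to 4 and at 2.17, 1.48, 1.71 and 0.780 TPM in Uba1 replicates 1 to 4. Every Uba1 muscle was below every NT muscle, and the mouse with the lowest NT value also had the lowest Uba1 value. The mean of 1.53 ± 0.579 TPM was 35.0% of the NT mean of 4.39 ± 0.989 TPM (SD, n = 4 each). Within mice the Uba1 muscle held 40.5%, 30.1%, 40.6% and 25.3% of the NT level. The difference of the mean log2(TPM + 1) was -1.10, a scale that understates the change of genes at such low levels, and it was -1.19 with median-ratio scaling and -1.51 with a pseudocount of 0.1. These are the values by which Adamts4 was chosen.

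The extremes among the mice were opposite for the pair. The replicate 1 mouse had the lowest Adamts1 and the highest Adamts4 level in both legs. The replicate 4 mouse had the highest Adamts1 and the lowest Adamts4 level in both legs. The mice of replicates 2 and 3, which lay between, ran the same way for both genes in each leg, with replicate 2 above replicate 3 in the NT muscles and below it in the Uba1 muscles. After the group means were subtracted, Pearson's r between their log2(TPM + 1) values was -0.86 and Spearman's rho -0.76, given as a description of 8 muscles that share 4 mice.

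**Figure D2:**
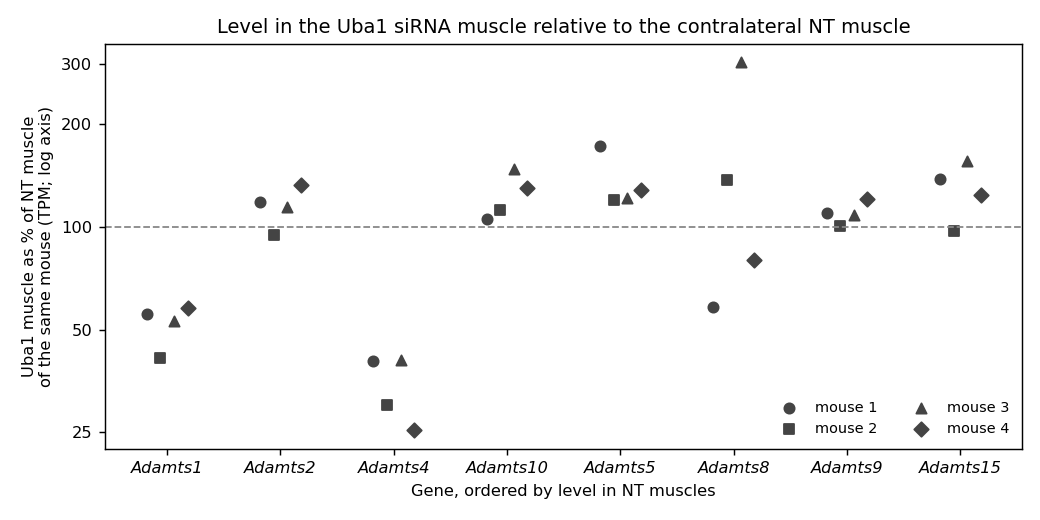
Level of each member in the Uba1 muscle as a percentage of the NT muscle of the same mouse, on a log axis, with 1 marker per mouse and the dashed line at no difference. All 4 mice lie between 41.4% and 57.8% for Adamts1 and between 25.3% and 40.6% for Adamts4, while Adamts5, Adamts9 and Adamts10 lie above 100% in all 4 mice.

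The other hyalectan-cutting members did not pass the adjusted test, and their means were slightly higher in the Uba1 muscles. With median-ratio scaling their log2FC was smaller, at 0.24 for Adamts5, 0.066 for Adamts8 and 0.11 for Adamts15. Adamts5, the aggrecanase-2 of cartilage, was at 3.54, 3.85, 5.34 and 2.85 TPM in NT replicates 1 to 4. In the Uba1 replicates 1 to 4 it was at 6.12, 4.62, 6.50 and 3.66 TPM. Each Uba1 muscle was above the NT muscle of the same mouse, although the groups overlapped. The log2FC was 0.34 (standard error 0.185, 95% interval -0.073 to 0.76), with an adjusted p of 0.340 from limma, and of 0.107 with the replicate block.

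Adamts8, a hyalectanase also known to restrain blood vessel growth, had no common direction among the mice. Its NT replicates 1 to 4 were at 3.79, 2.31, 1.25 and 2.60 TPM and its Uba1 replicates 1 to 4 at 2.20, 3.17, 3.77 and 2.08 TPM. The Uba1 muscle held from 58.1% to 303% of the NT level, and was higher in 2 of 4 mice. The log2FC was 0.15 (standard error 0.228, 95% interval -0.36 to 0.67, limma adjusted p = 0.714).

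Adamts9, which cuts versican and is also needed for the assembly of primary cilia, varied least between the legs of a mouse. NT replicates 1 to 4 were at 1.504, 1.73, 2.22 and 1.32 TPM and Uba1 replicates 1 to 4 at 1.65, 1.74, 2.39 and 1.60 TPM. The order of the 4 mice was the same in both legs. The log2FC of 0.081 (standard error 0.126, 95% interval -0.20 to 0.37, limma adjusted p = 0.729) was close to the median of all genes, and it was 0.0037 with median-ratio scaling.

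Adamts15, a versican-cutting protease of developing muscle, was at 1.03, 0.879, 1.17 and 0.445 TPM in NT replicates 1 to 4. It was at 1.42, 0.852, 1.81 and 0.552 TPM in Uba1 replicates 1 to 4. The order of the mice was again the same in both legs. The Uba1 muscle was higher in 3 of 4 mice, with a log2FC of 0.18 (standard error 0.199, 95% interval -0.27 to 0.63, limma adjusted p = 0.629).

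The members outside the hyalectan branch were also slightly higher by mean, though less so with median-ratio scaling, where the log2FC was 0.059 for Adamts2 and 0.14 for Adamts10. Adamts2, the procollagen N-proteinase whose loss causes fragile skin, was at 7.02, 6.10, 8.42 and 4.72 TPM in NT replicates 1 to 4. It was at 8.28, 5.79, 9.65 and 6.25 TPM in Uba1 replicates 1 to 4, higher in 3 of 4 mice. Its log2FC was 0.17 (standard error 0.182, 95% interval -0.24 to 0.58, limma adjusted p = 0.622).

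Adamts10, which binds fibrillin-1 and is mutated in a syndrome of short stature and lens dislocation, was at 4.83, 3.76, 4.31 and 3.61 TPM in NT replicates 1 to 4. In Uba1 replicates 1 to 4 it was at 5.07, 4.22, 6.37 and 4.68 TPM, higher in 4 of 4 mice with overlapping groups. Its log2FC was 0.24 (standard error 0.121, 95% interval -0.030 to 0.51, limma adjusted p = 0.317). Of the 7 members other than Adamts4, 6 had a log2FC above 0, with the deposited TPM and with median-ratio scaling, beside the 81.8% and 50.7% of all genes given above. The median log2FC of the 7 was 0.17, beside 0.11 over all genes, and 0.066 with median-ratio scaling.

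**Figure D3:**
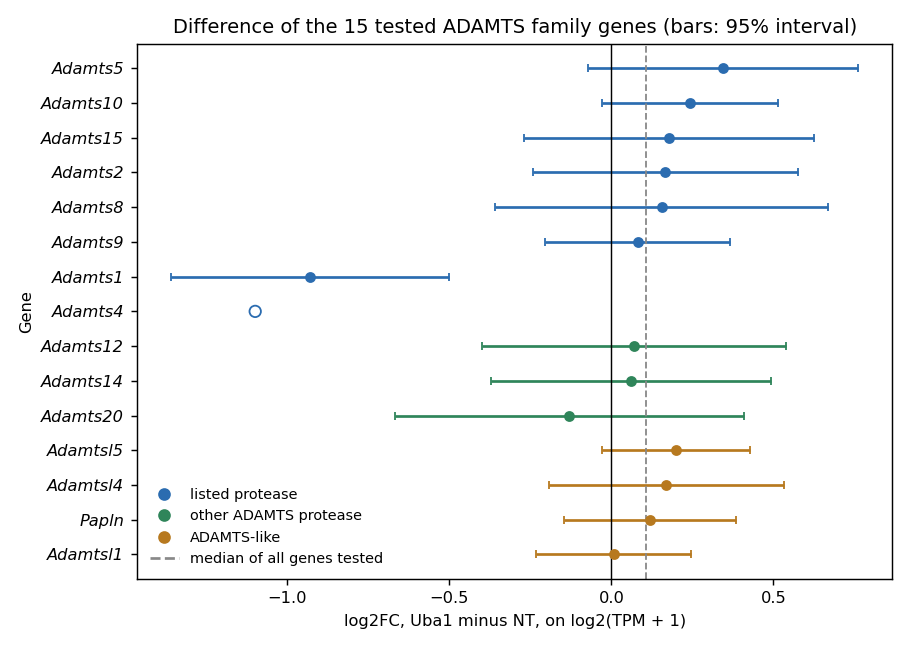
Log2FC (Uba1 minus NT muscles, on log2(TPM + 1)) of the members, of the other ADAMTS proteases and of the ADAMTS-like genes that were tested, with 95% intervals from limma. Adamts4 is an open circle without an interval because it was chosen on this contrast. The interval of Adamts1 ends at -0.50, and those of the other genes tested include 0.

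Adamts1 carried most of the summed mRNA of the family in the NT muscles. The 8 members summed to 71.5 ± 6.55 TPM in the NT muscles and to 49.7 ± 5.43 TPM in the Uba1 muscles (SD, n = 4 each), lower in 4 of 4 mice. Adamts1 made up 65.8% ± 8.36 of that sum in the NT muscles and 49.3% ± 10.3 in the Uba1 muscles. Over all 19 ADAMTS proteases the sums were 79.1 ± 5.64 and 57.7 ± 7.42 TPM, of which Adamts1 made up 59.7% ± 9.17 and 42.8% ± 10.6. Without Adamts1 and Adamts4 they were 27.2 ± 5.08 and 31.6 ± 8.11 TPM, higher with Uba1 siRNAs in 4 of 4 mice. Without Adamts1 alone, and thus with Adamts4 still counted, the sums were 31.6 ± 5.62 and 33.2 ± 8.48 TPM, higher in 3 of 4 mice. The 7 members without Adamts4 summed to means of 67.1 and 48.2 TPM, so the lower sum went with Adamts1.

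**Figure D4:**
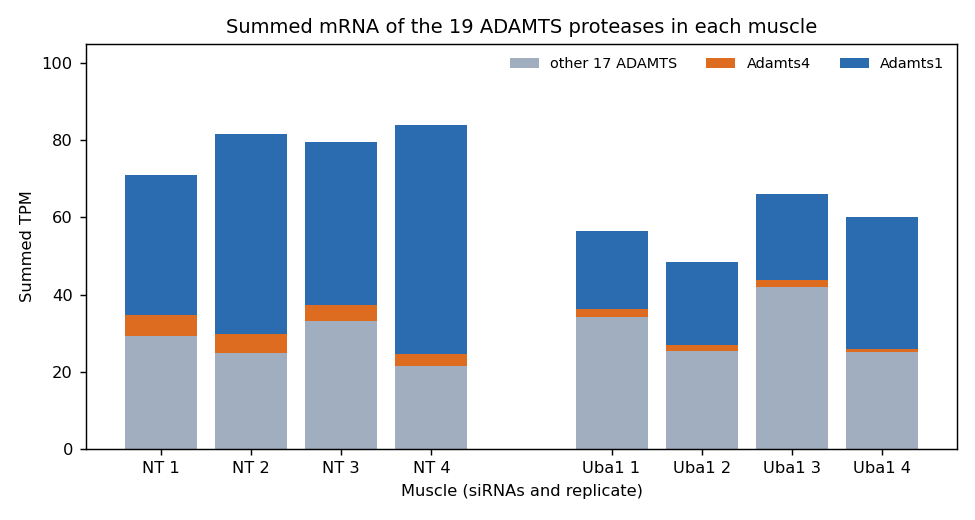
Summed TPM of the 19 ADAMTS proteases in each muscle, split into Adamts1, Adamts4 and the other 17 genes. The NT muscles sum to between 71.0 and 84.0 TPM and the Uba1 muscles to between 48.4 and 66.1 TPM, with most of the difference in the Adamts1 part of the bars.

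The balance between Adamts1 and its relatives can be read within a muscle, where the scaling of the libraries has no effect. The ratio of Adamts1 to Adamts10 was 7.53, 13.8, 9.81 and 16.5 in NT replicates 1 to 4 and 3.97, 5.10, 3.51 and 7.34 in Uba1 replicates 1 to 4. Every Uba1 ratio was below every NT ratio here, whereas the ratios to the other 5 members overlapped between the groups. Exact permutation tests were run on the 6 ratios, with Benjamini-Hochberg adjustment over them. The adjusted p ran from 0.0857, the value for Adamts10, to 0.143 for Adamts15, so no ratio passed. The mean ratio of Adamts1 to Adamts5, its neighbour on the chromosome, was 13.1 in the NT muscles and 5.19 in the Uba1 muscles, with ranges of 7.91 to 20.8 and 3.29 to 9.38. Against each of Adamts2, Adamts5, Adamts8, Adamts9, Adamts10 and Adamts15, the Adamts1 ratio was lower with Uba1 siRNAs in 4 of 4 mice. All these ratios share Adamts1 as numerator, so they are not independent of each other or of the lower Adamts1 level.

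Neighbouring members did not share a direction on chromosome 16. Adamts1 lies on chromosome 16 of GRCm39 from 85590579 to 85600009 and Adamts5 from 85653061 to 85698716, both on the minus strand with 53.05 kb between them. The former was lower and the latter higher in all 4 mice. Adamts8 (chromosome 9, 30853809 to 30875134, plus strand) and Adamts15 (chromosome 9, 30810451 to 30833863, minus strand) form a second neighbouring pair, 19.95 kb apart on opposite strands. Adamts4 lies on chromosome 1 from 171077986 to 171089841 (plus strand), Adamts2 on chromosome 11 from 50492787 to 50698400 (plus strand), Adamts9 on chromosome 6 from 92749680 to 92920520 (minus strand) and Adamts10 on chromosome 17 from 33742987 to 33772758 (plus strand).

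Of the 11 remaining ADAMTS proteases, 3 passed the filter and 0 of these passed the adjusted test, beside 0.0260% of all genes. Adamts12, which cuts cartilage oligomeric matrix protein, was at 2.17 ± 0.615 TPM in the NT muscles and 2.38 ± 0.963 TPM in the Uba1 muscles (SD, n = 4 each, log2FC 0.071, limma adjusted p = 0.861). Adamts14, a procollagen N-proteinase like Adamts2, had a log2FC of 0.060 (limma adjusted p = 0.871). Adamts20, the closest relative of Adamts9, had a log2FC of -0.13 (limma adjusted p = 0.772). Adamts13, the liver-made protease of von Willebrand factor, was listed at 0 in all 8 muscles, and the other untested genes had too low a level for the filter. ADAMTS-like proteins share the ancillary domains but have no protease domain. Of the 7 listed, 4 were tested, 4 had a log2FC above 0 (3 with median-ratio scaling) and 0 passed the adjusted test, beside 81.8%, 50.7% and 0.0260% of all genes. The most abundant was Adamtsl5, at 16.7 ± 2.74 and 19.2 ± 0.634 TPM (SD, n = 4 each, log2FC 0.20, limma adjusted p = 0.320). Adamtsl4, a fibrillin-binding protein of the eye, was at 9.67 ± 1.72 and 11.1 ± 2.75 TPM (log2FC 0.17, limma adjusted p = 0.570).

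Genes of the hyaluronan matrix on which the hyalectanases act included the largest log2FC among the lists of related genes examined. The lists here and below were chosen with earlier results of these data known, so this rank and their p-values are not independent support. Of 13 genes, 6 were tested. Has1 and Has2 were above 1 TPM in the 4 NT muscles and below it in every Uba1 muscle, so they passed the filter only through the group in which they were high, and they are given as values without a test. Of the other 4 genes, 1 was lower (Tnfaip6) and 0 were higher at an unadjusted p under 0.05, beside 1.98% and 16.0% of all genes. Tnfaip6 (TSG-6), which binds hyaluronan and transfers heavy chains onto it, was at 10.2, 17.1, 25.3 and 14.5 TPM in NT replicates 1 to 4 and at 4.24, 2.58, 2.55 and 5.003 TPM in Uba1 replicates 1 to 4. Its log2FC was -1.92 (standard error 0.265, limma adjusted p = 0.0522, 0.0473 with the replicate block). Has2, the main hyaluronan synthase of mesenchymal cells, was at 1.51 ± 0.290 and 0.496 ± 0.174 TPM (SD, n = 4 each). Has1, a second synthase, was at 2.53 ± 1.38 and 0.374 ± 0.263 TPM. Every muscle in both groups had been injected with hyaluronidase.

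Versican (Vcan), the main hyalectan of muscle that these proteases cut, was at 1.64 ± 0.525 TPM in the NT muscles and 1.81 ± 1.11 TPM in the Uba1 muscles (SD, n = 4 each). Its log2FC was 0.018, with a 95% interval from -0.59 to 0.63 and an adjusted p of 0.976 from limma. Cd44, the hyaluronan receptor, was at 5.49 ± 0.865 and 4.43 ± 1.77 TPM (log2FC -0.31, limma adjusted p = 0.444). These genes, with Timp3 and Lrp1 below, were singled out after their values were seen. Aggrecan, brevican and neurocan mRNAs (Acan, Bcan and Ncan) were too low to be tested.

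Of 12 inhibitors, cofactors, activators and clearance genes, 10 were tested, and 1 was lower and 1 higher at an unadjusted p under 0.05, beside 1.98% and 16.0% of all genes. Sdc4 (syndecan-4), a cell-surface heparan sulfate proteoglycan that binds ADAMTS proteases, was at 35.4, 43.0, 33.1 and 39.2 TPM in NT replicates 1 to 4. It was at 20.4, 23.5, 19.1 and 25.3 TPM in Uba1 replicates 1 to 4, with no overlap. Its log2FC was -0.75 (standard error 0.109, limma adjusted p = 0.0527, 0.00984 with the block). Fbln1 (fibulin-1), a known cofactor of Adamts1, was at 3.60 ± 1.64 and 5.45 ± 0.413 TPM (SD, n = 4 each, log2FC 0.55, limma adjusted p = 0.239). Timp3, the main physiological inhibitor of aggrecanases, was at 37.3 ± 5.22 and 38.1 ± 13.4 TPM (log2FC -0.024, limma adjusted p = 0.955). Lrp1, the endocytic receptor that clears Adamts4 and Adamts5, was at 12.4 ± 2.498 and 14.2 ± 3.35 TPM (log2FC 0.18, limma adjusted p = 0.578). Timp2, the most abundant gene of the list, was at 72.5 ± 13.1 and 87.2 ± 18.0 TPM (log2FC 0.26, limma adjusted p = 0.406).

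Of 12 cytokines known to induce ADAMTS genes in other tissues, with their receptors, 9 were tested. Without Il6, 1 (Tnf) was lower and 0 were higher at an unadjusted p under 0.05, beside 1.98% and 16.0% of all genes. Il6 was at 2.06, 5.72, 5.20 and 3.94 TPM in NT replicates 1 to 4 and at 0.837, 0.764, 0.0854 and 1.36 TPM in Uba1 replicates 1 to 4. Since 4 NT muscles but only 1 Uba1 muscle reached 1 TPM, Il6 met the filter through the NT group in which it was high, and it is given as values without a test. Tnf was at 2.82 ± 1.23 and 1.44 ± 0.759 TPM (SD, n = 4 each) and lower in 4 of 4 mice, with overlapping groups (log2FC -0.65, limma adjusted p = 0.238). It reached 1 TPM in 4 NT but only 2 Uba1 muscles, so the filter favoured its call too. Il1b, an inducer of aggrecanases in cartilage, was at 7.08 ± 2.86 and 4.999 ± 0.674 TPM (log2FC -0.37, limma adjusted p = 0.371). The TNF receptor Tnfrsf1a, the most abundant gene of the list, was at 22.2 ± 2.41 and 25.3 ± 3.13 TPM (log2FC 0.17, limma adjusted p = 0.386).

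**Figure D5:**
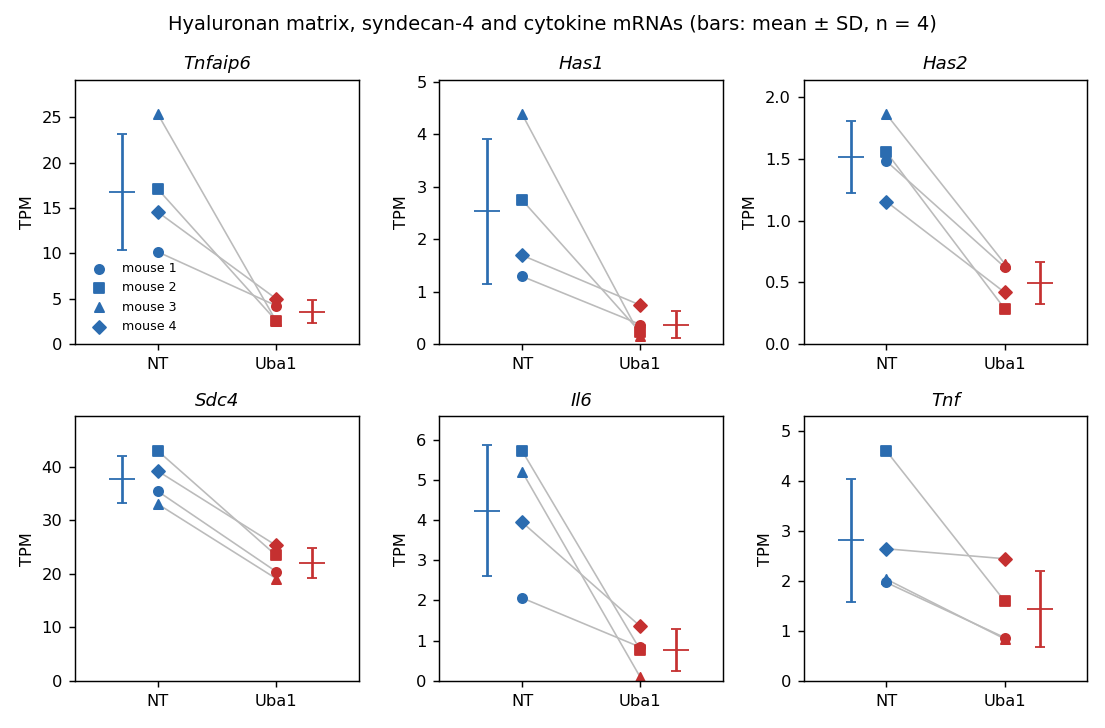
TPM of hyaluronan matrix genes (Tnfaip6, Has1, Has2), syndecan-4 (Sdc4) and the cytokines Il6 and Tnf in each TA muscle, with marker shapes for mice and bars for the mean ± SD of 4 muscles. These genes are shown because they had the lowest p-values among the lower genes of their lists, and Has1, Has2 and Il6 met the filter through the NT group. By this choice the groups differ in the plot, and only the values of Tnf overlap between them.

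The genes of fibrillar collagens and fibrillin microfibrils, on which Adamts2 and Adamts10 act, did not pass the adjusted test. Besides collagens and fibrillins, their list held the matrix genes Fn1, Mfap2, Mfap5 and Ltbp1. Of 12 genes, 10 were tested and 10 had a log2FC above 0 (9 with median-ratio scaling), beside 81.8% and 50.7% of all genes. The median was 0.25, beside 0.11 over all genes, and 0.13 with median-ratio scaling, beside 0.0016. Of the tendon markers 4 of the 4 tested had a log2FC above 0 as well (median 0.48, 0.38 with median-ratio scaling), and of the fibroblast and fibro-adipogenic markers 5 of 6 (median 0.22, 0.10 with median-ratio scaling), and their part in the collagen values was not tested. At an unadjusted p under 0.05, 1 gene of the list with the collagens was higher, a share below the 16.0% of all genes. It was Col1a2, the second chain of type I collagen, at 114 ± 38.4 and 162 ± 33.5 TPM (SD, n = 4 each, log2FC 0.55, limma adjusted p = 0.271). Col1a1 was at 220 ± 94.2 and 312 ± 82.7 TPM (log2FC 0.57, limma adjusted p = 0.340), and Col3a1, the most abundant gene of the list in NT muscle, at 263 ± 101 and 322 ± 143 TPM (log2FC 0.26, limma adjusted p = 0.691). Col5a1 had a log2FC of 0.35 (limma adjusted p = 0.460).

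The summed markers of the cells that could hold these mRNAs overlapped between the groups in each list. The tendon and most fibroblast markers were higher by mean, whereas most myofiber markers and the contractile smooth muscle markers were lower. Endothelial markers summed to between 115 and 175 TPM in the NT muscles and between 128 and 167 TPM in the Uba1 muscles. Pericyte and smooth muscle markers summed to between 245 and 385 TPM and between 272 and 295 TPM, with means of 306 and 284 TPM. Of these 7 markers, 4 had a log2FC above 0 (2 with median-ratio scaling). The contractile smooth muscle markers Acta2, Myh11 and Tagln were each lower in 3 of 4 mice. Fibroblast and fibro-adipogenic markers summed to between 205 and 303 TPM and between 215 and 371 TPM. Leukocyte markers summed to between 34.2 and 73.3 TPM and between 45.0 and 97.7 TPM, and tendon markers to between 35.7 and 104 TPM and between 77.9 and 92.9 TPM, with means of 64.0 and 86.1 TPM. Among the fibroblast markers Lum (lumican) was at 56.2 ± 13.2 and 78.3 ± 9.31 TPM (SD, n = 4 each), higher in 4 of 4 mice (log2FC 0.49, limma adjusted p = 0.187). Satellite cell markers summed to between 9.79 and 11.96 TPM and between 8.32 and 12.01 TPM, and Schwann cell markers to between 39.9 and 63.5 TPM and between 30.2 and 73.9 TPM. In each of these lists 0 genes passed the adjusted test, with or without the block, beside 0.494% and 0.0260% of all genes. At such shares, 0 in lists this short says little about the cells. None of the markers was at 0 in all muscles. A single marker did not overlap between the groups, the adhesion molecule Vcam1 of the satellite cell list, at 3.54 ± 0.427 and 2.16 ± 0.561 TPM (SD, n = 4 each, log2FC -0.54, limma adjusted p = 0.150), beside the 1.01% of all genes that were lower without overlap.

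The genes whose log2(TPM + 1) followed Adamts4 most closely over the 8 muscles were Tmem123, Wsb1, Plekho2, Dcun1d3 and Rcan1, with Pearson's r of 0.970, 0.958, 0.9496, 0.945 and 0.923. Since Adamts4 was chosen for its difference between the groups, these genes had to differ between them too. Tmem123 was at 22.7 ± 1.62 and 18.6 ± 0.826 TPM and Rcan1, an inhibitor of calcineurin, at 64.2 ± 9.53 and 46.4 ± 8.17 TPM (SD, n = 4 each). Adamts1, with an r of 0.57, ranked 389 among the genes tested. After the group means were subtracted, the closest were Ypel2, Pnkd, Fabp4, Itga3 and Klhl8, with r between 0.982 and 0.988. Fabp4, a fatty acid carrier of adipocytes and capillary endothelium, was at 61.5 ± 3.52 and 62.9 ± 4.03 TPM. These correlations describe 8 muscles of 4 mice and carry no test.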

How the data were processed

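RNA-seq of 8 TA muscles was analysed (4 with NT and 4 with Uba1 siRNAs). The authors prepared libraries with a TruSeq kit, used CLC Genomics Workbench to align reads to GRCm39, and deposited TPM values for 41709 genes. Read counts and the annotation are not given in the sources used here, and TPM keep no depth, so the number of muscles limits the precision. How reads shared by related genes were counted is not given either.

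The 11530 genes that reached 1 TPM in 4 or more muscles were tested with limma (version 3.58.1 in R 4.3.3, trend) on log2(TPM + 1) without covariates, with Benjamini-Hochberg adjustment over all of them. P-values of the fit without covariates measure the spread between muscles, and those with the replicate block the spread of the leg differences over 4 mice. The fit was tested on simulated data. Exact permutation tests were two-sided and treated the muscles as independent, without the pairing of legs. The study's own test, Kruskal-Wallis, was an alternative, with those given in the closing section.

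Equal replicate numbers mark the legs of a mouse, by the titles and the contralateral design. Deviations of same-numbered muscles from their group means correlated with r of -0.000368, 0.201, 0.584 and 0.537 for replicates 1 to 4.

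The members, gene lists and marker lists were chosen with earlier results of these data known. Named genes were all members, per list up to 3 with the lowest unadjusted p and the most abundant, the 5 genes most like Adamts4 by each measure, and Uba1. Vcan, Cd44, Timp3, Lrp1, Lum, Vcam1, Acta2, Myh11 and Tagln fall outside this rule and were named after their values were seen. Positions and promoters come from GENCODE M39 on GRCm39, and the promoter of 1 member is not reported here. All columns of values were used.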

Additional observations from a re-analysis of the deposited data

Results flagged for a closer look

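Among 76 groups of 4 muscles (the members, Uba1 and the other genes described by their TPM or log2FC), 4 held a muscle that stood apart from the other 3 by Dixon's criterion, where chance gives about 3.8 (1 in 20). Adamts1 was at 34.3 TPM in Uba1 replicate 4, against 20.1 to 22.3 TPM in the other Uba1 muscles. Adamts20 was at 3.00 TPM in NT replicate 3, against 1.52 to 1.71 TPM in the other NT muscles. Adamts14 was at 2.24 TPM in NT replicate 3, against 1.22 to 1.23 TPM. Adamtsl4 was at 12.2 TPM in NT replicate 4, against 8.599 to 9.20 TPM.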

How the results depend on the processing

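The log2FC of Adamts1 stayed below 0 in all 17 alternatives, with an adjusted p between 0.00765 and 0.351, and those of Adamts2, Adamts5, Adamts10 and Adamts15 stayed above 0 wherever they were tested, with ranges of 0.039 to 0.28, 0.24 to 0.48, 0.15 to 0.31 and 0.038 to 0.32 with each muscle left out. The number of the 7 members other than Adamts4 that passed the adjusted test (0) became 1, Adamts1, under the replicate block, whether or not combined with median-ratio scaling, and was 0 to 1 with each muscle left out. The 1 without Uba1 replicate 4 was Adamts1. At an unadjusted p under 0.05 the number (1) became 3 with the replicate block, 2 with TPM rescaled without mitochondrial genes or with both block and median-ratio scaling, and 1 to 2 with each muscle left out. The added member was Adamts10 without NT replicate 1 or Uba1 replicate 2 and without mitochondrial genes, Adamts5 without NT replicate 3 or Uba1 replicate 4 and with block and scaling, and both with the block. Of the members with a log2FC above 0 (6), 1 was left with a mean of 5 TPM or more, where only Adamts1 and Adamts2 were tested. The Adamts4 difference was -1.51 with a pseudocount of 0.1. Adamts9 was at -0.032 with quantile normalization and between -0.0060 (without Uba1 replicate 3) and 0.17 with each muscle left out, and Adamts8 between -0.040 (without NT replicate 3) and 0.32. Uba1 passed the adjusted p at -2.09 with median-ratio scaling (also when blocked by replicate), -2.06 after quantile normalization, -2.0 without mitochondrial genes, and -1.98 both with the replicate block and among genes with a mean of 5 TPM or more. It lay between -2.18 and -1.64 with each muscle left out, and passed without Uba1 replicate 2 (limma adjusted p = 0.00257) or replicate 4 (0.0206). The number of all genes past the adjusted p (3) was 57 with the block, 76 when this was combined with median-ratio scaling, 23 under that scaling alone, 28 after quantile normalization, 13 without mitochondrial genes, 11 with a mean of 5 TPM or more, and 2 to 39 with each muscle left out (39 without Uba1 replicate 4, 6 without NT replicate 1, 5 without NT replicate 3 or Uba1 replicate 2). The Kruskal-Wallis test called 0 genes, with 2210 at an unadjusted p under 0.05. Its smallest p for 4 muscles against 4 is 0.0209. Adamts1, whose groups do not overlap, had that p and a Kruskal-Wallis adjusted p of 0.180, so even full separation could not pass here. Of all genes at that p, 1844 were higher and 228 lower, against 510 and 712 with median-ratio scaling. Causes were not tested. With TPM alone, differences in members near 1 TPM cannot be set against a counting error.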
